A study of Bombyx mori with 64 samples.

Results

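The midgut of the silkworm Bombyx mori was followed through the larval to pupal transition at 3 stages, the fifth-instar day 7 larva, the 0-hour spinning larva and the 0-hour prepupa. The 6 midgut arrays, 2 slides (a and b) for each of 3 RNA specimens, were chosen by their titles and tissue labels among the 64 arrays of the series, of which 28 cover metamorphosis in 4 tissues. All animals were of the bivoltine DaZao strain, were fed mulberry leaves and received no treatment, and each specimen was of mixed sex. Small RNA was labelled with Cy3 and hybridized to 106 miRNA probes, each printed as 3 spots. By the study's methods, some of these probes repeat a miRNA, and some are for antisense strands. Many are for miRNAs of other organisms with no homology in the silkworm genome. The probe numbers do not tell these kinds apart, so counts of probes are not counts of separate silkworm miRNAs. The labels do not say how many animals a specimen held, so slides a and b give technical spread only, and the 3 stages stand on 1 specimen each.

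The larval midgut digests and absorbs the leaf meal. Feeding stops at about the time the larva starts to spin its cocoon, and the larval gut epithelium then breaks down and is replaced by a pupal one built from progenitor cells, a change driven by ecdysteroids. miRNAs are short RNAs that repress target mRNAs, and several families are known to change with ecdysteroid pulses in insects. The files give the probes numbers only, from SW-1 to SW-106. One of them could be named: SW-7 carried the highest signal of all day 3 larval arrays, 79376 in the female head, and the study states that this maximum belongs to miR-1, a miRNA of muscle in flies and vertebrates. All other probes are given by number, and their sequences are not shown.

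Signals of 1000 or more were taken as expression, the limit the study used. By the mean of both slides, 84 probes were expressed in the day 7 midgut, 67 at spinning and 73 in the prepupa. Of these, 63 were expressed at all 3 stages, 85 at any stage, and 21 at none. Over all 106 probes the slides of a specimen correlated at Pearson's r of 0.969, 0.941 and 0.991 in the order of the stages, with median differences between slides of 0.13, 0.25 and 0.19 on the log2 scale. The stages correlated at 0.918 (day 7 and spinning), 0.937 (spinning and prepupa) and 0.906 (day 7 and prepupa), and each midgut specimen was closer to another midgut specimen than to any specimen of the other tissues, whose highest r with it was 0.844, 0.864 and 0.888.

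Technical values moved with stage as well. The names of the array files carry codes that put the arrays into 10 sets, here called sessions, and the sources do not say what the codes mark. The day 7 and spinning midgut are in session 9 and the prepupal midgut in session 8, so that for the prepupa stage and session cannot be told apart. The control spots named blank read 3686 and 3811 on the day 7 slides, 2860 and 2344 at spinning, and 399 and 207 in the prepupa. By specimen means, 29, 37 and 94 of the 106 probes lay above the blank spots of the same slides, and 55, 30 and 0 probes reached 1000 while lying under them. The ratio of the control spots zip21 to zip15 was 4.53 at spinning against 0.29 on day 7 and 0.304 in the prepupa. A ratio above 1 was also seen in body wall and fat body prepupae (3.21 and 4.18) and in no other specimen of metamorphosis. What the blank and zip spots hold is not given in the sources used here, and their part in the stage differences was not tested.

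**Figure D1:**
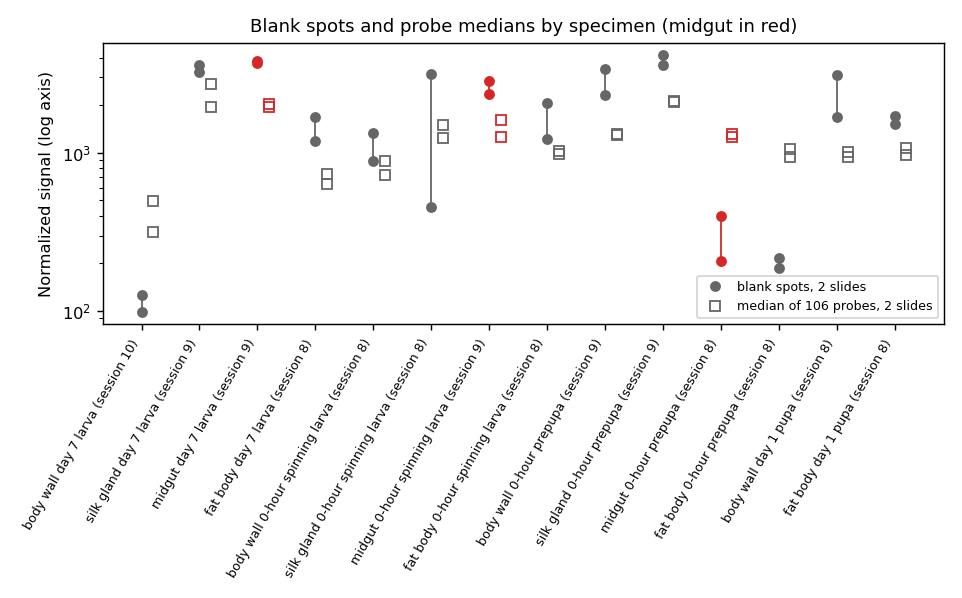
Normalized signal (log axis) of the blank control spots (filled circles, 1 per slide) and the median of the 106 probes (open squares, 1 per slide) for the 14 specimens of metamorphosis, midgut in red, with the session of each specimen. The blank spots of the midgut lay at 2344 to 3811 on day 7 and at spinning and at 207 and 399 in the prepupa, while the probe medians lay between 1254 and 2024.

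Many of the most abundant probes of the midgut were the same at each stage. At 10000 or more lay 22, 20 and 12 probes in the order of the stages, and 10 of them lay there at all 3 stages, namely SW-7, SW-8, SW-25, SW-27, SW-53, SW-55, SW-58, SW-68, SW-72 and SW-76. SW-68 was the brightest on day 7, with 36463 and 34186 on slides a and b, 28941 and 27429 at spinning, and 41955 and 36599 in the prepupa. SW-7, the miR-1 probe, was the brightest at spinning and in the prepupa. SW-7 read 33827 and 25240 on day 7, 40156 and 41205 at spinning, and 58172 and 54606 in the prepupa. The prepupal slides were both above all earlier ones, but the difference of 0.95 from day 7 on the log2 scale stayed under the limit of 1 used for counting, and 2 of the 6 spinning spots were near the scanner's ceiling. Spots at a net signal of 64000 or more were taken as near the ceiling. That net signal came to scaled values of 44192 and 43668 on the spinning slides, under both prepupal signals. The scaling decided the size: from day 7 to the prepupa the difference was 1.57 with each array centred on its own median, which was counted, and 0.33 with net signals, which also turned the difference from spinning to the prepupa from 0.47 to -0.39. SW-25 hardly moved, with stage means of 13513, 12413 and 14641.

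A probe was counted as higher or lower where 2 stages differed by 1 or more on the log2 scale, their slides did not overlap, and the higher stage reached 1000. With 1 specimen per stage these counts have no test and no p-value. From day 7 to spinning 5 probes (4.72% of 106) were higher and 14 (13.2%) were lower. The median over all probes was -0.45, so that the signals of most probes were lower at spinning under the authors' scaling. Centred on the array medians, 14 probes were higher and 5 lower, and 5 probes were counted in each direction under both scalings.

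The 5 probes that were higher at spinning kept their direction and their count when the arrays were centred. SW-17 read 2609 and 2546 on day 7 and 11994 and 10713 at spinning, a difference of 2.14 on the log2 scale. SW-41 went from 2226 and 2057 to 9504 and 8628 (2.08), and SW-35 from 3334 and 2843 to 9964 and 10309 (1.72). For all of these the spinning slides were above both day 7 slides by 2 or more times. The day 7 signals of SW-17, SW-41 and SW-35 were under the blank spots at 3748. Set against the blank spots of the same slides in place of those signals, a comparison added after the data were seen, the differences were 1.60, 1.27 and 1.44. SW-53 and SW-72 were already abundant in the day 7 midgut: SW-53 read 11755 and 10115 and then 25413 and 28816 (1.31). SW-72 read 14348 and 12597 and then 27360 and 32566 (1.15), although slide a alone gave 0.93. In the prepupa SW-17 and SW-41 were at 13335 and 12661 and at 9953 and 9330, which is within 0.20 and 0.09 of spinning on the log2 scale. The other 3 probes were lower again in the prepupa, SW-35 by 0.52, SW-53 by 0.71 and SW-72 by 0.46, all under the limit.

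Of the 14 probes lower at spinning, only SW-28, SW-59 and SW-81 had a day 7 signal above the blank spots. SW-59 had the largest difference among the probes with intact spots. It read 17039 and 17929 on day 7, 4073 and 3421 at spinning, and 2167 and 1882 in the prepupa. The slides of the 3 stages did not overlap, and the difference was -2.23 from day 7 to spinning and -3.11 from day 7 to the prepupa on the log2 scale, or -1.75 and -2.49 after centring. SW-81 went from 4616 and 4976 to 2391 and 1611 (-1.29), which centring brought to -0.81. SW-28 read 13880 and 13781 on day 7 and 7 and 7234 at spinning, where 4 of its 6 spots gave a net signal of 1 or less. Its difference of -4.02 therefore rests on failed spots, and slide b alone gave -0.93. The remaining 11 probes, among them SW-24, SW-105, SW-94, SW-62 and SW-42, had day 7 signals of 1020 to 2081, under the blank spots at 3748, and differences of -1.03 to -1.82. SW-94 was the only probe counted in both steps: it read 1732 and 1998 on day 7, 591 and 583 at spinning and 1265 and 1281 in the prepupa.

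**Figure D2:**
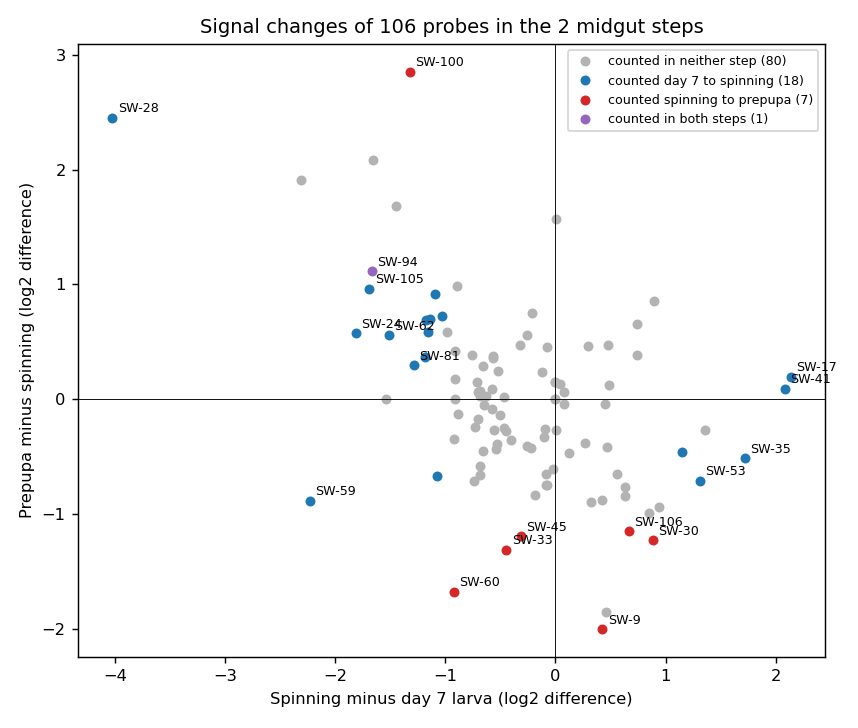
Each point is 1 of 106 probes, with the log2 difference from day 7 larva to spinning on the x axis and from spinning to prepupa on the y axis (specimen means of 2 slides). Coloured points were counted in 1 or both steps; SW-17 and SW-41 lie at the right near 0 on the y axis, SW-9 at the bottom, and SW-94 alone was counted in both steps.

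From spinning to the prepupa 2 probes (1.89%) were higher and 6 (5.66%) lower, with a median of 0.0 over all probes. After centring, 3 were higher and 5 lower, and 1 and 5 were counted under both scalings. SW-9 was the most changed of the abundant probes. It read 17959 and 21787 on day 7, 29805 and 23654 at spinning, and 7098 and 6183 in the prepupa, which gave -2.00 on the log2 scale for the second step. The prepupal slides lay below all earlier slides, with no overlap. SW-33 went from 11447 and 11138 at spinning to 4637 and 4454 in the prepupa (-1.31), and SW-45 from 12527 and 11638 to 5750 and 4853 (-1.19). Both had changed by less than 0.5 in the first step, and in both the prepupal slides did not overlap the spinning ones.

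SW-106 and SW-30 were at their highest at spinning. SW-106 read 13323 and 12275 on day 7, 18114 and 22821 at spinning and 10907 and 7685 in the prepupa, a second-step difference of -1.15, of which slide a alone gave -0.73. SW-30 read 2643 and 2431, then 4571 and 4767, then 1919 and 2070 (-1.23). All 5 probes were still counted lower after centring. SW-60, the remaining probe, read 1188 and 1103 at spinning and 472 and 270 in the prepupa, and its spinning signal was under the blank spots. After centring the difference of -1.68 came to -1.53, but SW-60 was not counted. Of the 2 higher probes, SW-100 read 310 and 479 on day 7, 128 and 185 at spinning and 1099 and 1128 in the prepupa. Its difference of 2.85 in the second step starts near the floor of 100 that was applied before the log2, and it just passed the limit of expression in the prepupa. The other was SW-94, given above. The spinning signals of SW-100 and SW-94 were under the blank spots at 2602. Set against those blank spots, as added for the first step, the differences were -1.22 for SW-100 and -1.02 for SW-94.

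Over the whole interval, from day 7 to the prepupa, 7 probes (6.6%) were higher and 15 (14.2%) lower, with a median of -0.45. After centring, 11 were higher and 3 lower, and 6 and 3 were counted under both scalings. Besides SW-17 (2.33), SW-41 (2.17), SW-35 (1.20) and SW-100 (1.53), the higher probes were SW-92, SW-27 and SW-46. These 3 were higher at each later stage without passing the limit in either step. SW-92 read 1742 and 1850, then 3261 and 3416, then 5676 and 6468, a total of 1.76 on the log2 scale. SW-27 read 11278 and 11108, then 20115 and 17405, then 33157 and 26184 (1.40), and SW-46 read 6514 and 6348, then 10508 and 10960, then 16360 and 12059 (1.13, or 0.93 with slide b alone). In all of them the slides of each stage lay above those of the stage before. With net signals the differences of SW-27, SW-46 and SW-35 over the interval came to 0.78, 0.51 and 0.58, under the limit. The day 7 signals of SW-17, SW-41, SW-35, SW-92 and SW-100 were under the blank spots. Set against these, the differences were 1.79, 1.36, 0.92 and 0.69 for SW-17, SW-41, SW-35 and SW-92, and the prepupal signal of SW-100 was itself under the day 7 blank spots.

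Of the 15 lower probes, SW-9, SW-28, SW-33, SW-38, SW-45, SW-57 and SW-59 had day 7 signals above the blank spots, all of 12799 or more. SW-59 (-3.11) and SW-33 (-1.76) remained lower by 1 or more when centred. SW-9 (-1.58), SW-28 (-1.57), SW-45 (-1.51), SW-38 (-1.26) and SW-57 (-1.02) came to -0.96, -0.95, -0.89, -0.64 and -0.39 and were not counted then. SW-38 read 12291 and 13308 on day 7, 8340 and 7615 at spinning and 5820 and 4878 in the prepupa. SW-57 read 13373 and 14265, then 12969 and 11409, then 6680 and 6986. The other 8 lower probes had day 7 signals of 1020 to 2557, under the blank spots, and SW-60 (-2.60) was the only one of them still counted after centring.

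**Figure D3:**
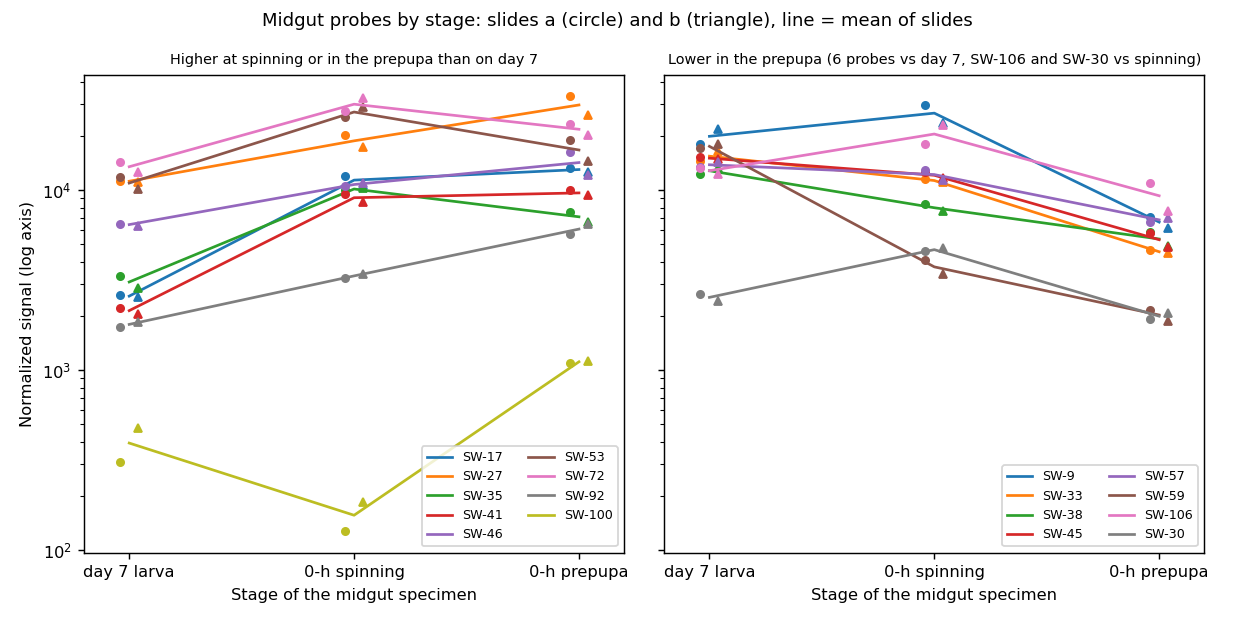
Normalized signal (log axis) of midgut probes by stage, slide a as a circle and slide b as a triangle, lines through the means. On the left are the 9 probes counted higher at spinning or in the prepupa than on day 7; on the right 6 probes counted lower in the prepupa than on day 7 with day 7 signals above the blank spots, and SW-106 and SW-30, counted lower than at spinning. SW-28 is left out for its failed spots.

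Within the midgut, stage was tested as a slope over the stages, with the spread taken from all 14 specimens of the 4 tissues. The pupal fat body, whose labels give both day 1 and day 2, entered as day 1. With limma, 0 of 83 probes (0.0% in either direction) had a midgut slope at an adjusted p under 0.05, and the smallest adjusted p was 0.81. Before adjustment 0 positive and 3 negative slopes passed 0.05. These were SW-59 with -1.56 per stage step on the log2 scale (95% interval -2.76 to -0.36), SW-60 with -1.30 and SW-45 with -0.75, each at an adjusted p of 0.81 in limma. The median standard error of a slope was 0.42 with 6 residual degrees of freedom. The midgut slope minus the mean slope of the other tissues passed for 0 of 83 probes as well (0.0%). Before adjustment 0 higher and 2 lower probes passed 0.05, namely SW-9 with -1.40 and SW-60 with -1.53, both at an adjusted p of 0.647 in limma. When the 2 pupal specimens of body wall and fat body were left out, SW-9 passed with -1.67 at an adjusted p of 0.0277 in limma, and when the midgut prepupa was left out SW-28 passed in both tests on its failed spots.

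How the midgut differed from body wall, silk gland and fat body at matched stages was tested with tissue and stage as factors. The fit had 7 residual degrees of freedom, and limma added 58.6 from the spread shared over the probes. The p-values therefore rest largely on that shared spread. Of the 83 probes, limma placed 11 (13.3%) higher and 4 (4.82%) lower in the midgut than the mean of the other tissues. The difference was positive for 73 of the 83 probes, with a median of 0.52 on the log2 scale, which centring brought to 0.0009. After centring 9 probes passed as higher, all among the 11. As lower 6 passed, the same 4 with SW-9 and SW-31. SW-106 stood highest, with 9296 to 20468 in the 3 midgut specimens, 84 to 316 in body wall, 437 to 1789 in fat body and 3671 to 10567 in silk gland. The difference was 3.56 ± 0.44 on the log2 scale (SE, adjusted p = 1.58e-09, limma), and 3.08 after centring (adjusted p = 0.00125, limma). SW-54 (2.87 ± 0.46) and SW-8 (2.35 ± 0.44) had the same order of tissues, with midgut signals of 9374 to 15883 and 10376 to 16207, and the silk gland next. For SW-106 and SW-8 the midgut and silk gland ranges overlapped.

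SW-68 (2.78 ± 0.45) and SW-7 (2.55 ± 0.44) were high in the midgut and in the body wall alike. Their adjusted p of 1.3e-06 and 4.8e-06 came to 0.0105 and 0.0293 after centring (limma). SW-7 spanned 29534 to 56389 in the midgut and 23735 to 66465 in the body wall, against 1812 to 4651 in silk gland and 1043 to 11011 in fat body. The midgut and body wall ranges overlapped, so the difference from the mean of the tissues came from silk gland and fat body. SW-72 (2.35 ± 0.44) was above all other specimens, at 13473 to 29963 in the midgut against at most 12673 elsewhere. The other higher probes were SW-33, SW-28, SW-22, SW-44 and SW-1, of which SW-28 and SW-44 did not pass after centring (adjusted p = 0.164 and 0.122, limma) or with session as a block (0.296 and 0.147). SW-1, SW-28 and SW-44 also failed when the day 7 midgut was left out, and SW-1 and SW-44 when the spinning midgut or the prepupal silk gland was. Without the day 7 silk gland 17 probes passed as higher.

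On the lower side, SW-11 was at 60.5 to 139 in the midgut against 7719 to 22131 in silk gland, with body wall and fat body at 132 to 699. The fitted difference was -3.24 ± 0.61 (adjusted p = 1.56e-05, limma), but its size depends on the floor of 100, since the midgut signals were at or near it and under the blank spots, and no fold is read from it. SW-45 (-1.70 ± 0.37, adjusted p = 0.00024, limma) was expressed in all tissues but less in the midgut, with 5301 to 15029 against 16417 to 59654 in the other 11 specimens and no overlap. With net signals it did not pass (-1.43, adjusted p = 0.155, limma). SW-18 (-1.41) was at 1740 to 2943, overlapping silk gland and body wall. Without the day 7 or the spinning midgut SW-18 no longer passed (adjusted p of up to 0.0801, limma). With net signals it did not pass either, and over all alternatives its adjusted p reached 0.269 (limma). SW-38 (-1.05) was at the threshold, with an adjusted p of 0.05, and no longer passed when any of 12 single specimens was left out (up to 0.181). It also failed with net signals, and over all alternatives its adjusted p reached 0.416 (limma). Without the spinning midgut 2 probes, SW-11 and SW-45, passed as lower.

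**Figure D4:**
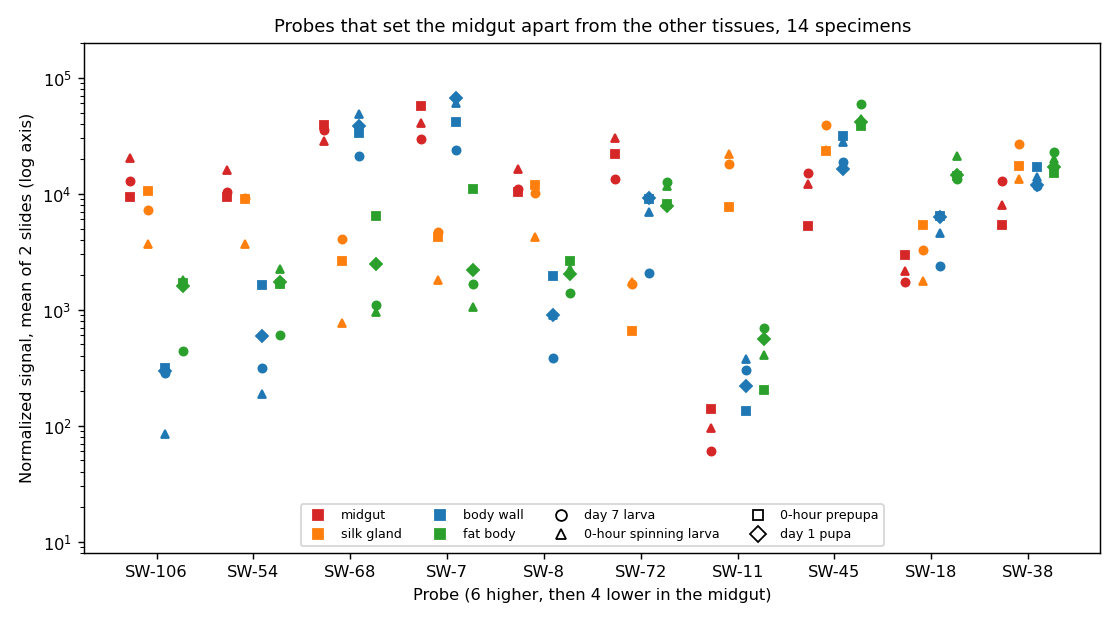
Normalized signal (log axis, mean of 2 slides) of 10 probes in the 14 specimens, coloured by tissue and shaped by stage. SW-106, SW-54 and SW-8 were high in midgut and silk gland, and SW-68 and SW-7 in midgut and body wall. SW-72 was highest in the midgut, with fat body next at 7791 to 12673. SW-11 was high in silk gland, and SW-45 was lower in the midgut than in all other specimens.

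Beside the other tissues, the stage differences of the midgut are given side by side. SW-17, SW-41 and SW-35, the most raised at spinning, were also higher at spinning in body wall (3.99, 4.07 and 3.62 on the log2 scale) and in fat body (2.92, 3.21 and 3.26), against 81.1% and 78.3% of all 106 probes that were higher there. In silk gland, where 18.9% of all probes were higher, they changed by -0.19, -0.38 and 0.01, and after centring by 0.56, 0.37 and 0.76, so that the direction of SW-17 and SW-41 there depends on the scaling. At spinning, SW-17 stood at 11354 in the midgut, 11322 in body wall and 11419 in fat body, and at 3224 in silk gland. SW-59 was lower in the prepupa than on day 7 in each tissue, with differences of -3.11 in the midgut, -3.30 in body wall, -1.73 in silk gland and -3.60 in fat body. In silk gland its signal was 12053 on day 7 and 20811 at spinning.

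SW-9 differed in direction between the midgut and the other tissues over the whole interval, but not in each step. At spinning it was higher than on day 7 in all 4 tissues. From spinning to the prepupa it changed by -2.00 in the midgut, -0.86 in fat body, 0.36 in body wall and 0.235 in silk gland. After centring the body wall and silk gland values of that step came to -0.34 and -0.39. From day 7 to the prepupa it changed by -1.58 in the midgut and by 2.24 in body wall, 1.07 in silk gland and 1.95 in fat body, and the prepupal midgut with 6641 was the lowest of the prepupal tissues, the others being at 26845 to 42982. The test of this difference in slope is the one given above, which missed the threshold over 14 specimens. Of the 15 probes lower in the prepupal midgut, 14 were also lower in silk gland, where 58.5% of all 106 probes were lower, 1 in body wall (14.2% of all) and 5 in fat body (17.9%). Of the 7 higher probes, 7 were higher in body wall (84.9% of all), 6 in silk gland (36.8%) and 7 in fat body (79.2%). The counts in body wall and fat body depend on the scaling. After centring, 8 of the 15 were lower in body wall (58.5% of all) and 8 in fat body (43.4%). Of the 7, 4 were then higher in body wall (41.5%) and 6 in fat body (53.8%). In silk gland the counts stayed at 14 of the 15 lower (50.0% of all) and 6 of the 7 higher (44.3%).

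**Figure D5:**
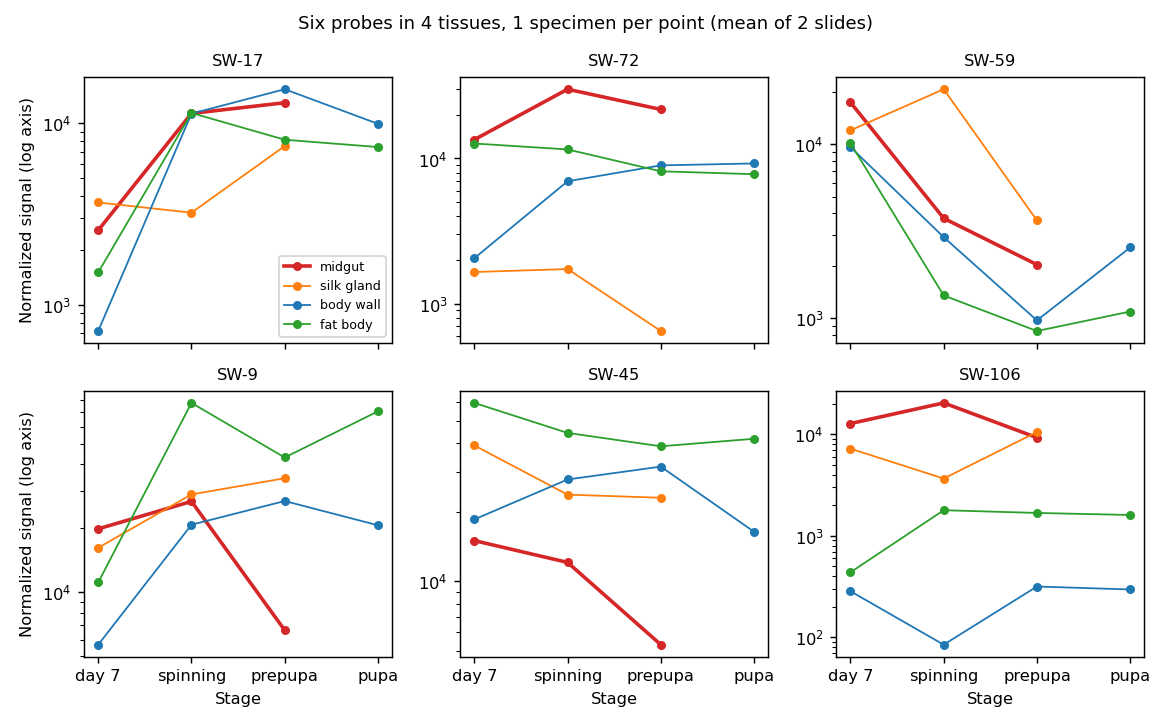
Normalized signal (log axis, 1 specimen per point, mean of 2 slides) of 6 probes by stage in midgut, silk gland, body wall and fat body. SW-17 was higher at spinning in midgut, body wall and fat body, SW-59 was lower in the prepupa than on day 7 in all 4 tissues, and SW-9 was lower in the prepupa than on day 7 in the midgut alone, where it read 6641.

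The tissue label was checked with the probes that stood out in the midgut of day 3 larvae, a separate set of arrays. These 5 probes, SW-7, SW-68, SW-33, SW-81 and SW-1, were all at 1000 or more in the 3 midgut specimens, with summed signals of 89359, 86441 and 106209, against 6627 to 117854 in the other specimens of metamorphosis. SW-7 and SW-68 also led the day 3 head list and were in the body wall list, so the list does not single out the midgut. SW-11, which led both silk gland lists, was under 140 in all midgut specimens. The remaining probes went the other way, as 4 of the 5 in each list were at 1000 or more in every midgut specimen. The anterior list summed to 49530, 63946 and 33731 in the midgut and to 1725 to 53050 elsewhere. The posterior list summed to 44556, 55800 and 27739 in the midgut and to 2242 to 50129 elsewhere. The sums of these lists therefore do not set midgut and silk gland apart. The malpighian tubule list (SW-54, SW-106, SW-8, SW-33 and SW-27), from an organ attached to the gut, summed to 60662, 82610 and 63262 in the midgut and to 6693 to 50767 elsewhere. It shares SW-106, SW-54, SW-8 and SW-33 with the probes higher in the midgut, and SW-27 was counted higher in the prepupa than on day 7. The part of malpighian tubule RNA in the signal of these probes was not tested. The hemocyte list (SW-20, SW-72, SW-17, SW-92 and SW-55) summed to 36349, 67194 and 54545 in the midgut and to 17076 to 55574 elsewhere. It holds SW-17, SW-72 and SW-92, which were counted higher at a later stage, and the part of hemocyte RNA was not tested. The fat body list summed to 37278, 27278 and 19225.5 in the midgut and to 34429 to 100145.5 elsewhere. In bulk RNA of a whole organ, a lower signal from fewer cells of a type and from less RNA per cell cannot be told apart.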

How the data were processed

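The study compared miRNA levels in midgut from day 7 larvae to prepupae on one-colour arrays. Per the labels and methods, the authors measured spot intensities in LuxScan, removed the background around each spot, gave spots at or under 0 the value 10, exchanged outlying spots and applied a single scaling factor to every array. The methods name a global median as its basis and the results a global mean. The deposited normalized signal intensity per probe, the mean of 3 spots on a linear scale, was used, and the deposited net intensities before scaling served as an alternative. The deposited percent of pixels over background served to check the failed spots of SW-28. The factors were 0.722, 0.909, 0.69, 0.682, 1.20 and 1.30 for the midgut slides in the order of the stages. The number of arrays limits the precision.

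A floor of 100 was set before the log2, and both slides of a specimen, which hold the same RNA, were averaged. Stage differences have no test. Tests used limma 3.58.1 in R 4.3.3 (lmFit, eBayes with trend, Benjamini-Hochberg within a contrast, adjusted p under 0.05) on the 83 probes that reached 1000 in 3 or more of 14 specimens. The slopes had tissue intercepts and tissue slopes, and the levels had tissue and stage as factors. P-values rest on residuals over the specimens. For the slopes these are departures from a straight line within the tissues, and for the levels departures from added tissue and stage effects. With 1 specimen per tissue and stage, no spread between replicate specimens is measured. Probes named are up to 8 per direction with the largest counted stage difference, up to 6 per direction against other tissues, SW-7 and SW-94. SW-25, SW-38 and SW-57 were singled out after their values were seen, as were the lists of abundant probes. Alternatives were array-median centring, net signals, a floor of 10, single slides, no filter or threshold, a session block, 12 specimens and leaving out each specimen. The probes and lists were chosen with earlier results of these data known. The fits were tested on simulated data. Python 3.11.15, numpy 2.4.6, pandas 2.3.3 and matplotlib 3.10.9 were used for the remaining steps.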

Additional observations from a re-analysis of the deposited data

Results flagged for a closer look

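The control spots named blank gave a signal above that of the spots spelled Blank, which read 7 to 19 on the midgut slides. The main counts and the tests did not use the spots named blank. These spots served as a reference level beside the counts and in comparisons added after the data were seen. Their mean was 3748 in the day 7 midgut, 2602 in the spinning midgut and 303 in the prepupal midgut. The log2 change of the blank spots was -0.53 from day 7 to spinning and -3.17 from spinning to the prepupa. Over the 28 arrays of metamorphosis the blank spots ranged from 99 to 4123.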

How the results depend on the processing

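No paired analysis was possible because the replicate numbers are slides a and b of the same RNA, which were averaged. Array-median centring gave 14 probes higher and 5 lower from day 7 to spinning and 11 and 3 from day 7 to the prepupa; it raised the share of higher among counted probes from 26.3% to 73.7% in the first step and from 31.8% to 78.6% over both. Net signals gave 8 and 8 from day 7 to spinning, 0 and 45 from spinning to prepupa and 3 and 53 from day 7 to prepupa, and 1 probe with a lower level in the midgut. Without the expression threshold 6 probes were higher from spinning to prepupa. Counting only probes above the blank spots, an alternative chosen after seeing the data, left 3 lower at spinning and 7 lower in the prepupa than on day 7. Single slides gave 4 to 5 higher and 8 (slide a alone) to 19 lower from day 7 to spinning, 3 to 5 (5 with slide b alone) higher and 7 to 8 lower from spinning to prepupa, and 7 higher and 15 to 17 lower overall. Leaving out slides or specimens gave 0 to 1 negative slopes, 0 to 1 lower slopes against the other tissues, the 1 being SW-28 without the midgut prepupa, and 8 to 17 higher and 2 to 5 lower levels. The extremes were 17 higher without the silk gland day 7 larva, 8 without the midgut day 7 larva and 2 lower without the midgut at spinning. With 12 specimens 1 slope, of SW-9, was lower against the other tissues. The SW-7 slope against the other tissues turned to -0.184 with net signals, -0.094 with 12 specimens, -0.224 without the silk gland day 7 larva and -0.091 without the fat body pupa, and was at most 0.647, without the silk gland prepupa. The causes were not tested. Signals near the blank spots and the 1 specimen per stage limit all stage differences.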
